A study of Mus musculus with 6 samples.

Results

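Histone genes were examined across the C0321 tumors. They were taken from the deposited table by symbol, as the genes whose symbol begins with Hist, a digit and h, and those whose symbol begins with H2af, H1f or H3f. This gave 79 of the 13730 genes of the table, and 95 of its 20648 transcripts. The first kind, 68 genes named for the replication clusters, comprised 5 genes of the linker histone H1, 19 of H2A, 19 of H2B, 12 of H3 and 13 of H4. The second kind, 11 genes, comprised the replacement histones H1f0, H1fx, H2afj, H2afv, H2afx, H2afy, H2afy2, H2afy3, H2afz, H3f3a and H3f3b. By the positions in the table (mm10), 54 of the cluster genes lay on chromosome 13, 10 on chromosome 3, 3 on chromosome 11 and 1 on chromosome 6.

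RNA from 6 tumors was measured, 3 control and 3 given SS. The tumors grew from C0321, a single mouse triple-negative breast cancer (TNBC) line made from an Lfng-/- animal on the FVB background, so that all of them carried that deletion. For each tumor, cells mixed with Matrigel and PBS had been placed in the mammary fat pad of a syngeneic female FVB mouse aged 6 to 10 weeks, and treatment began once a mass could be felt. SS was given at 60 mg/kg by mouth every day for 14 days. The sample labels call the agent Sulindac Sulfate and the study calls it sulindac sulfide, while the control treatment is saline in the series text and vehicle in the study. No label says whether the tumors of a group came from separate mice, so p-values measure the spread between these samples. Libraries were prepared from polyadenylated RNA and read as pairs of 75 nucleotides, and totals ranged from 8468914 to 24441522 counts per tumor. Levels are given as CPM, counts per 1000000 counts of the TMM-scaled library. Among the markers of the labelled tumor type, the keratin gene Krt8 ranged from 417 to 544 CPM over the 6 tumors, and the hormone receptor genes Esr1 and Pgr ranged from 4.48 to 6.40 CPM and from 0.00 to 3.82 CPM. Erbb2, the gene of the growth factor receptor HER2, ranged from 17.1 to 22.4 CPM. Vim, a gene of mesenchymal cells, ranged from 5875 to 8620 CPM, while the epithelial adhesion gene Epcam ranged from 0.04 to 2.98 CPM. The basal keratin genes were uneven, with Krt5 from 0.00 to 73.1 CPM and Krt14 from 6.44 to 45.9 CPM, each highest in control 1.

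Histones H2A, H2B, H3 and H4 form the core around which DNA is wound, and H1 binds the DNA that enters and leaves it. The cluster genes are known to be transcribed while DNA is copied, and most of their mRNAs end in a stem-loop in place of a poly(A) tail, which is bound by the protein SLBP. Replacement histone genes are expressed outside of S phase as well, and their mRNAs are usually spliced and polyadenylated.

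Cluster RNA was abundant in these libraries, as given below, although most cluster mRNAs are known to lack the tail that a poly(A) selection binds. The stem-loop in place of that tail is shown first. It was searched in GENCODE M21 transcripts (GRCm38) after the stop codon, as a stem of 6 bases that starts with GG, a loop of 4 bases that starts with TT, continues with T or C and does not end with G, and the reverse complement of the stem. In the sequences below the capitals mark the stem-loop, with 5 flanking bases on each side, for an abundant cluster gene each of H2A, H2B, H3 and H4, for the H4 gene with the largest fold change, and for H2afx.
Hist2h2aa1, chr3:96246027-96246052, plus strand: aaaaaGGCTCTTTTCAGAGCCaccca
Hist1h2bg, chr13:23571838-23571863, plus strand: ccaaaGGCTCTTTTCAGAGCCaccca
Hist2h3c2, chr3:96238480-96238505, minus strand: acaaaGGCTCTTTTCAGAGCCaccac
Hist1h4n, chr13:21831793-21831818, minus strand: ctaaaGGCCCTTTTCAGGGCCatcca
Hist4h4, chr6:136803993-136804018, minus strand: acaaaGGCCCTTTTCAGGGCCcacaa
H2afx, chr9:44335235-44335260, plus strand: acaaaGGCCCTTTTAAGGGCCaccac

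The stem-loop was found in 43 of the 66 cluster genes with an annotated coding transcript. Of the cluster genes without it, 15 had an annotation that ended within 15 bases of the stop codon, and 8 had a longer annotated end. Of 10 annotated replacement genes, 1 held it, H2afx, whose H2A.X protein is phosphorylated at DNA breaks. Among all 21805 genes with a coding transcript, 71 held it, or 0.326%, and 44 of the 71 were the histone genes counted here. The motif began between 21 and 58 bases after the stop codon (median 31), the loop read TTTC in 35 of the 44 genes, and the stem read GGCTCT in 32. In the deposited table a transcript ended within 10 bases of the stem-loop for 43 of the 44 genes. The only transcript of H2afx ran more than 100 bases past it. Hist1h2be also had a long form that ran further than 100 bases past it, as given below. In the GENCODE annotation, by contrast, 22 of the 44 had a transcript that ran more than 100 bases past the motif.

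Promoters were compared because the cluster genes varied together across the tumors, as given below. RefSeq promoters (GRCm38.p6, from 250 bases before to 50 after the start, the first listed per gene) matched 70 of the 79 genes. The CCAAT box, on either strand, was in 52 of 61 cluster promoters, or 85.2%, and in 37.9% of the first promoters of all 27025 genes. Of the replacement promoters, 6 of 9, or 66.7%, held the box. All promoters of the H1, H2A, H2B and H3 cluster genes that were matched held it, against 3 of 12 of H4. TATAAA, on either strand, was in 57.4% of cluster promoters, 11.1% of replacement promoters and 14.2% of all. The octamer ATTTGCAT was in 21.3% of cluster promoters, namely 7 of 18 of H2A and 6 of 16 of H2B, in 11.1% of replacement promoters and in 1.75% of all. None of the 3 motifs contains another. The 150 bases before the start are shown for the most abundant H2A gene, for an H2B gene that held all 3 motifs, and for 2 replacement genes with another pattern across the tumors. Capitals mark the 3 motifs on either strand.
Hist2h2aa1, chr3:96245347-96245496, plus strand: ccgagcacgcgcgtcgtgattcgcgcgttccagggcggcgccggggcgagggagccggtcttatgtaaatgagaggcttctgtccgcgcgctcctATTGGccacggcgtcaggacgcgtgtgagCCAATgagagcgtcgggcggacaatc
Hist1h2bg, chr13:23571250-23571399, plus strand: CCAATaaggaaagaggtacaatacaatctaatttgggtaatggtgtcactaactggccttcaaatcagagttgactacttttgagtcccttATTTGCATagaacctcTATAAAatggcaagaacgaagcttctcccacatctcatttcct
H1f0, chr15:79028062-79028211, plus strand: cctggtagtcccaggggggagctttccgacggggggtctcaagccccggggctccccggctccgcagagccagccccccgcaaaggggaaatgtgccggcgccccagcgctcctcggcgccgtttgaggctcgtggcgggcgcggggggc
H3f3b, chr11:116024505-116024654, minus strand: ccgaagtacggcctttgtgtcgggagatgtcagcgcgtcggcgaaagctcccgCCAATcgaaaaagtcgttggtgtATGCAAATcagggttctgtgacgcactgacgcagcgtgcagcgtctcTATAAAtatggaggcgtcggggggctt
H3f3b, which encodes the replacement histone H3.3, held the same 3 motifs as Hist1h2bg, and the stretch of H1f0 held none. Many H2A and H2B genes stood head to head. In all, 15 pairs of an H2A and an H2B gene, some with overlapping symbols, had start sites on opposite strands that were between 168 and 306 bases apart.

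Although polyadenylated RNA had been selected, histone RNA was a sizeable part of each library, for a reason that was not tested. It made up 5.40%, 6.88% and 3.26% of the counts in controls 1, 2 and 3, and 7.16%, 5.01% and 5.76% in the tumors given SS. All levels below are listed in this order, by the number of the tumor. The groups overlapped, and control 3 was the lowest of the 6. The cluster genes, with symbols of identical counts taken once, summed to 49550, 65660 and 29890 CPM in controls and to 67730, 47800 and 55400 CPM with SS. The mean was 48370 ± 17910 CPM (SD, n = 3) in the control group and 56980 ± 10060 CPM (SD, n = 3) in the SS group, a ratio of 1.18. This difference was smaller than the SD of either group. The replacement genes summed to 3018, 3601 and 2833 CPM in controls and to 3422, 2839 and 3388 CPM with SS, a ratio of 1.02. In bulk tumors, fewer cells that make histones and less histone RNA per cell cannot be told apart.

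**Figure D1:**
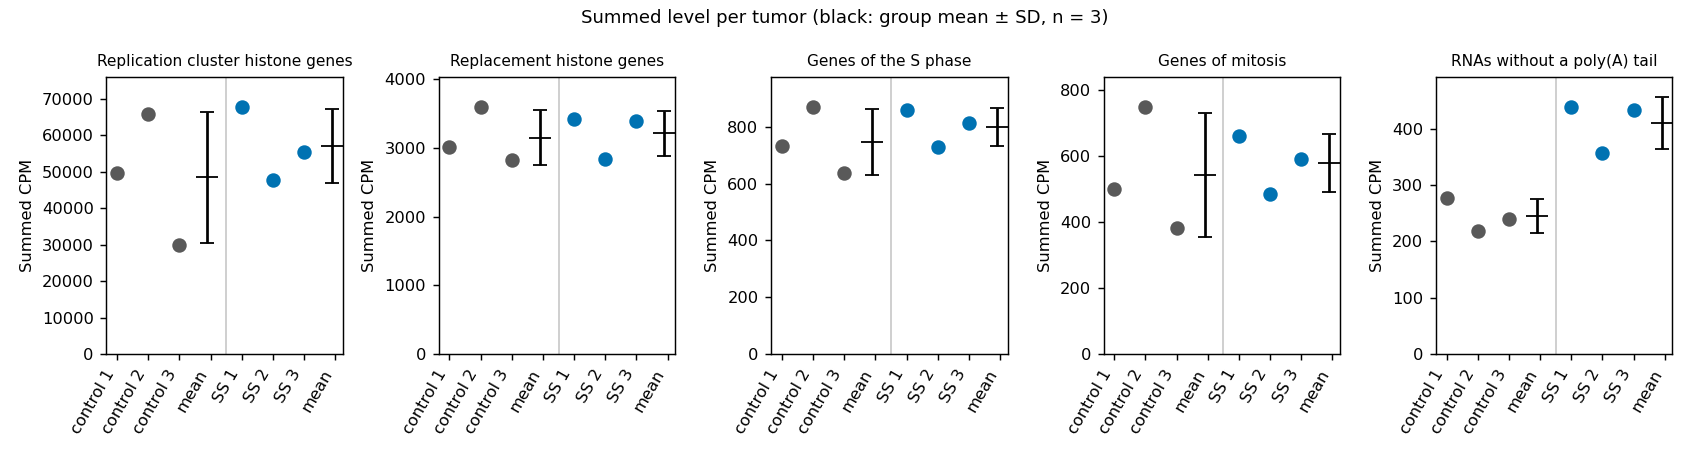
Summed CPM in each tumor for the cluster histone genes, the replacement histone genes and 3 gene lists, 1 panel each, with a linear axis from 0. Points are tumors and black bars are the group mean ± SD (n = 3). The cluster sum was lowest in control 3, at 29890 CPM, and highest in SS 1, at 67730 CPM, while the RNAs without a poly(A) tail were higher in all SS tumors than in all control tumors, which did not hold without Rn45s.

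Of the 79 genes, 77 passed edgeR's filter on low counts, or 76 with distinct counts, 65 of the clusters and all 11 replacement genes. None was called between SS and control by edgeR (quasi-likelihood test, Benjamini-Hochberg adjustment), where adjusted p-values ran from 0.790 to 0.996. The same test called 0% of the 10902 genes tested. None of the 76 was at an unadjusted p under 0.05 either, where 6.36% of all genes were, and DESeq2 called 0 of them after adjustment. The log2 fold change (SS minus control) was above 0 for 64 of the 65 cluster genes, against 49.8% of all genes, and its median was 0.23 with a range from -0.09 to 0.41. The median standard error was 0.29, larger than the median change, and the median over all genes tested was -0.0013. Cluster genes vary together, so their number is not a number of independent observations. Single tumors moved this result both ways. Without control 3, 22 of the 65 were above 0 and the median was -0.04. Without control 2, all 65 were above 0, the median was 0.52, and 10 of the histone genes were at an unadjusted p under 0.05, among 560 genes in all, with none called after adjustment. Without SS 1, 51 were above 0 and the median was 0.09. For the replacement genes the median was 0.05, with 6 above 0 and 5 below.

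**Figure D2:**
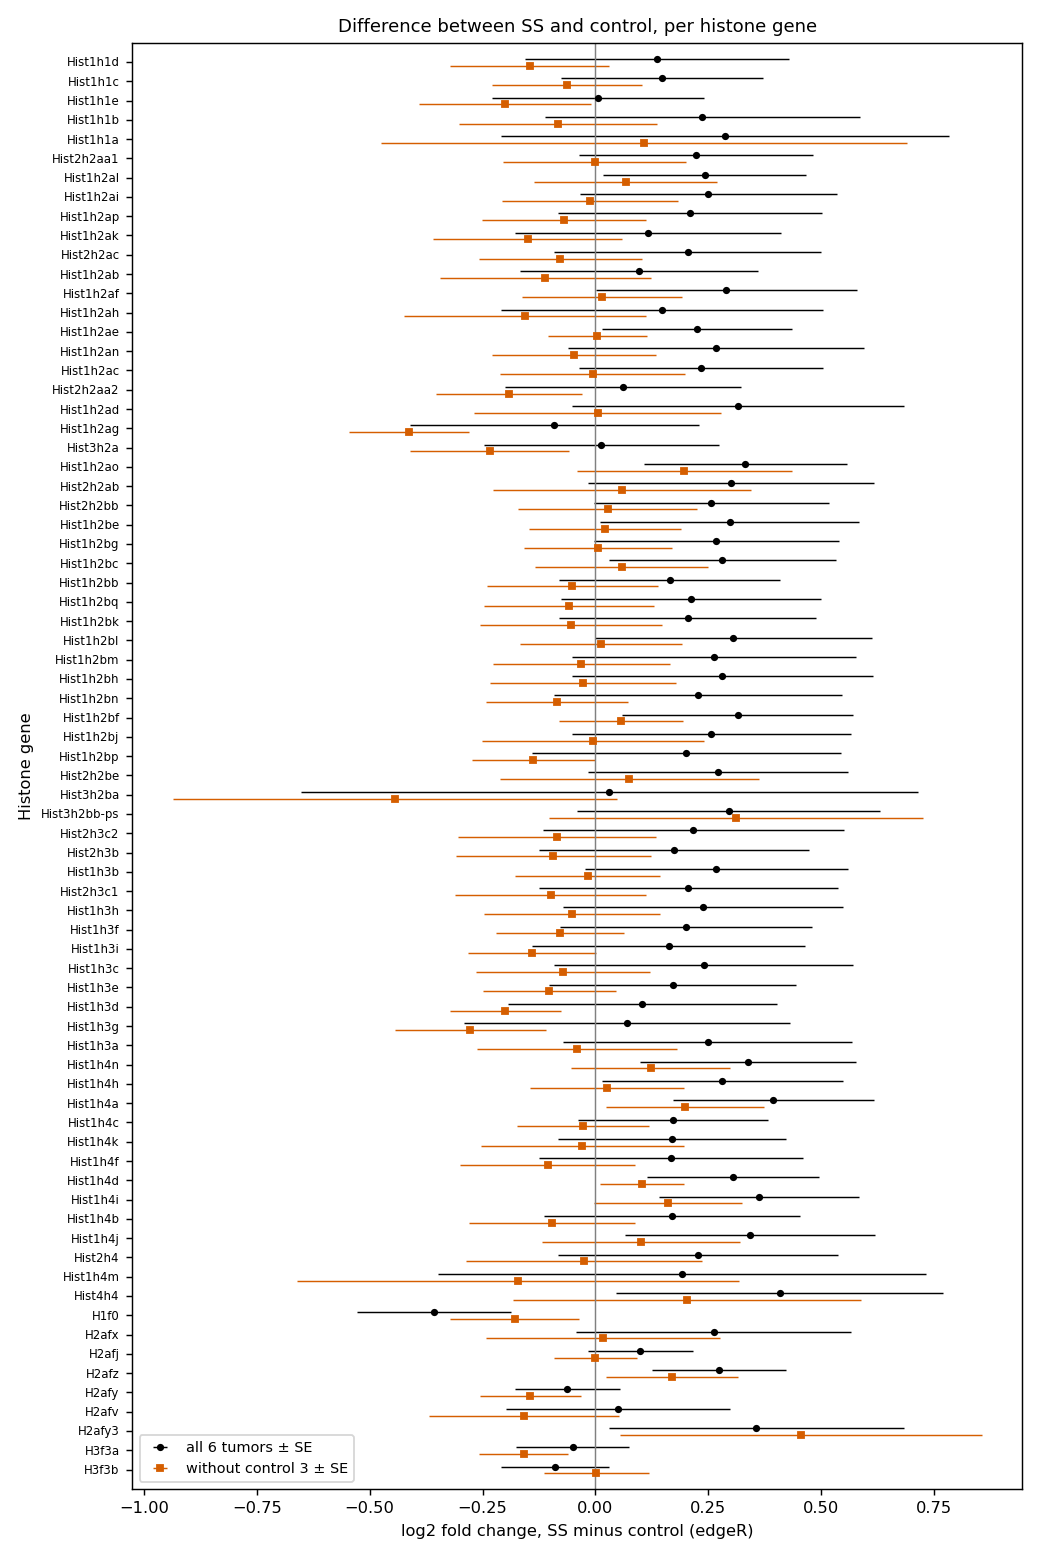
The log2 fold change of each tested histone gene (SS minus control, edgeR), with its standard error, from all 6 tumors in black and without control 3 in orange. Cluster genes stand above and replacement genes at the foot, and H1fx and H2afy2 are left out for their wide errors. With all tumors 64 of 65 cluster genes lay right of 0, and without control 3 it was 22 of 65.

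One tumor stood low in nearly all cluster genes, while the highest was SS 1 for 35 of 65 and control 2 for 26. Control 3 had the lowest CPM of the 6 tumors for 62 of the 65 cluster genes, where it was the lowest, ties not counted, for 17.2% of all genes tested and for 14.1% of the 1655 genes at a mean of 100 CPM or more. Among cluster genes above that level, it was the lowest for 55 of 55. Relative to its own mean over the 6 tumors, on the log2 scale, the median cluster gene stood at 0.02, 0.39 and -0.81 in controls and at 0.41, -0.09 and 0.14 with SS. All 65 cluster genes were above their own mean in control 2, and none was in control 3. Control 3 was singled out after its values had been seen, and it was also the most deeply sequenced library, with 24441522 counts. The 3 cluster genes that were lowest elsewhere were Hist1h1a, Hist3h2bb-ps and Hist4h4, with means of 2.27, 3.74 and 31.1 CPM.

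**Figure D3:**
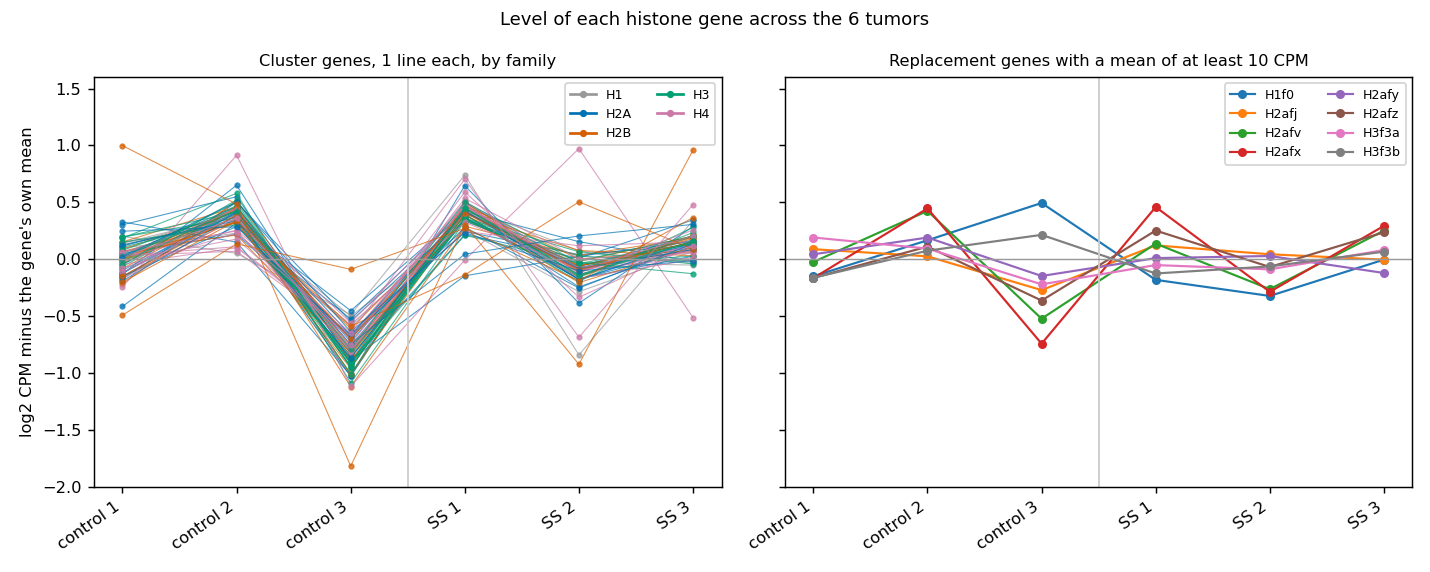
The log2 CPM of each histone gene minus its own mean over the 6 tumors, for cluster genes colored by family (left) and for replacement genes with a mean of at least 10 CPM (right). The median cluster gene stood at -0.81 in control 3 and at 0.39 in control 2, and among the replacement genes H2afx took the same course while H1f0 and H3f3b were highest in control 3.

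The spread between tumors was wide for genes of this level. The highest tumor exceeded the lowest by a median of 2.39-fold over the cluster genes, against 1.70-fold over all genes tested. At a mean of 100 CPM or more, the median was 2.39-fold over the 55 cluster genes, with a range from 1.83-fold to 3.18-fold, against 1.31-fold over all 1655 genes. The biological coefficient of variation that edgeR estimated had a median of 0.269 over these 55 and 0.143 over the 1655. The median was 2.39-fold over the 43 cluster genes with an annotated stem-loop and 2.42-fold over the 22 without one.

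**Figure D4:**
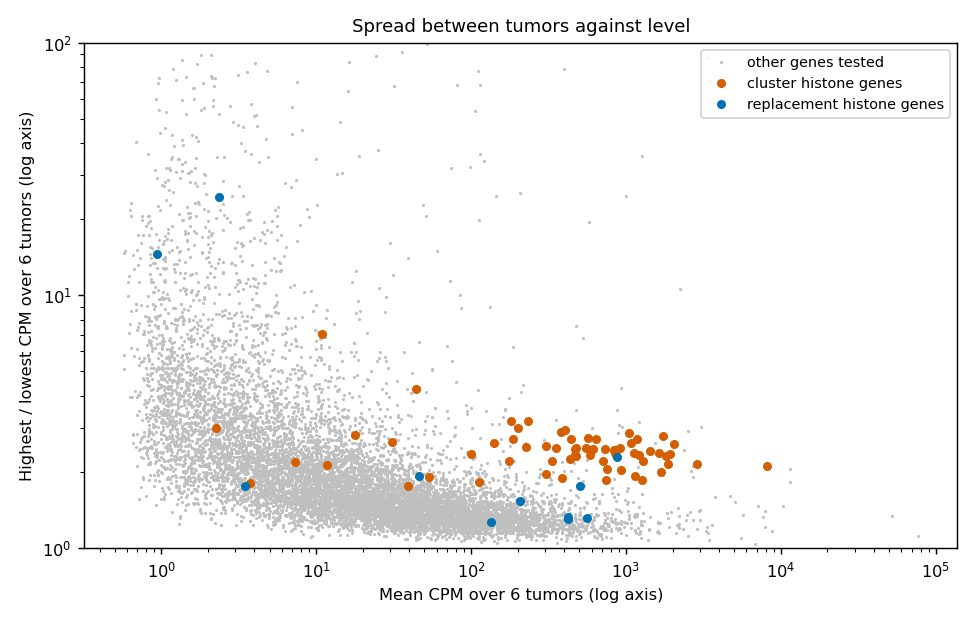
The ratio of the highest to the lowest CPM over the 6 tumors against the mean CPM, both on log axes, with 1 point for each tested gene. Of 10902 genes, 370 with a ratio over 100 or a value of 0 in a tumor are not drawn. At 100 CPM and above, cluster genes (orange) stand near 2.39-fold, above the median of 1.31-fold for all genes of that level.

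The H2A and H2B genes carried the most RNA. H2A made up between 31.0% and 33.3% of the cluster total in the 6 tumors, H2B between 33.6% and 34.96%, H3 between 11.5% and 13.4%, H4 between 18.6% and 21.2%, and H1 between 0.388% and 0.455%. The total itself differed by 2.27-fold between the highest and the lowest tumor. The ratio of H2B to H2A was 1.113, 1.054 and 1.009 in controls and 1.101, 1.095 and 1.092 with SS. The ratio of H3 to H4 was 0.652, 0.718 and 0.542 in controls and 0.616, 0.632 and 0.630 with SS. Both ratios were lowest in control 3, the tumor with the lowest total. The ratio of H1 to H4 was 0.0221, 0.0216 and 0.0200 in controls and 0.0190, 0.0196 and 0.0194 under SS. It was lower in every SS tumor than in every control, by a small margin, and it was not lowest in control 3. The groups did not overlap for 12.9% of all genes tested either, and no test was run on this ratio.

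The most abundant histone gene was Hist2h2aa1, which encodes an H2A. Its level was 7058, 10440 and 4939 CPM in controls and 10454, 7406 and 8333 CPM with SS, a log2 fold change of 0.22 ± 0.26 (SE), and -0.002 without control 3. The groups overlapped, with control 3 lowest and SS 1 and control 2 alike. Per kilobase of transcript it was also the highest, at a mean of 14577 CPM per kb, ahead of Hist2h2bb at 5852, Hist1h4n at 4985, Hist1h2be at 4599 and Hist1h2bg at 4131 CPM per kb. The values of Hist2h2aa1 and Hist1h4n each sum a pair of positions, so they are not levels per copy. The highest replacement gene on that scale was H2afx, at 631 CPM per kb, which ranked 45 of the 77 genes with a length, every symbol counted. Among the H2A genes, Hist1h2ag was the 1 cluster gene with a negative log2 fold change, at -0.09 ± 0.32 (SE), which turned to 0.014 with the replicate block, 0.047 by limma-voom and 0.04 by quantile normalization with limma. Without control 3 its change was -0.41 ± 0.13 (SE). It stood at 220, 261 and 96.6 CPM in controls and at 161, 182 and 199 CPM with SS, which again overlapped. Hist3h2a had 172, 241 and 109 CPM in controls and 200, 158 and 168 CPM with SS, a change of 0.01 ± 0.26 on the log2 scale.

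Of the H2B genes, Hist2h2bb was at 2520, 3651 and 1714 CPM in controls and at 3706, 2621 and 3097 CPM with SS. Hist1h2be was at 1997, 2455 and 1059 CPM in controls and at 2727, 1967 and 2075 CPM with SS. Hist1h2bg was at 1853, 2322 and 1043 CPM in controls and at 2460, 1773 and 2048 CPM with SS. In all 3 genes the order was SS 1, control 2, SS 3, then control 1 and SS 2 close together, with control 3 last. Their log2 fold changes were 0.26 ± 0.26, 0.30 ± 0.29 and 0.27 ± 0.27 (SE), and 0.03, 0.02 and 0.01 without control 3. Hist1h2bb ranged from 1078 to 2160 CPM and Hist1h2bc from 1114 to 2402 CPM, each from control 3 to SS 1. Hist3h2ba was much lower, at 17.6, 12.3 and 2.5 CPM in controls and at 10.9, 4.65 and 17.2 CPM with SS, and its ratio of highest to lowest was 7.04.

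Among H3 genes the most abundant was Hist2h3c2, at 1605, 2374 and 857 CPM in controls and 2267, 1507 and 1849 CPM with SS. Its log2 fold change was 0.22 ± 0.33 (SE), or -0.085 without control 3, which was again lowest. All 12 H3 genes were lowest in control 3 and highest in control 2 (8 genes) or SS 1 (4 genes).

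The H4 genes had the larger fold changes of the clusters, with a median log2 fold change of 0.28 over 13 genes, and they supplied the 5 largest. Without control 3 the median was 0.026, with 7 of 13 above 0. Hist4h4 changed by 0.41 ± 0.36, Hist1h4a by 0.39 ± 0.22, Hist1h4i by 0.36 ± 0.22, Hist1h4j by 0.34 ± 0.28 and Hist1h4n by 0.34 ± 0.24 (SE, log2 scale). Without control 3 these were 0.20, 0.20, 0.16, 0.10 and 0.12. With all tumors the 5 confidence intervals (95%) held 0, and the smallest unadjusted p, of Hist1h4a, was 0.117, with an adjusted p of 0.813 by edgeR. Hist1h4a was at 1210, 1338 and 785 CPM in controls and 1740, 1147 and 1491 CPM with SS. Hist1h4d was the 1 gene of the 76 whose groups did not overlap, where 12.9% of all genes tested did not. It was at 743, 784 and 461 CPM in controls and 861, 789 and 808 CPM with SS, with an exact permutation p of 0.1 (two-sided), the smallest that 3 against 3 can give. SS 2 and control 2 were nearly level there. Of the 13 H4 genes, 11 were highest in SS 1 and 1 in control 2, whereas of the 18 H2A genes 8 were highest in SS 1 and 10 in control 2.

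The H1 genes of the clusters were low, and summed to 225, 263 and 127 CPM in controls and 265, 190 and 215 CPM with SS. Hist1h1e was at 42.7, 48.2 and 27.3 CPM in controls and 46.2, 31.7 and 40.6 CPM with SS, a log2 fold change of 0.01 ± 0.23 (SE). All 4 other H1 genes tested had a positive log2 fold change, but without control 3 this held for 1 of the 5, Hist1h1a at 0.11. The others were then at -0.08 (Hist1h1b), -0.06 (Hist1h1c), -0.15 (Hist1h1d) and -0.20 (Hist1h1e).

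The replacement genes took several courses. H2afx, the 1 with the stem-loop, followed the cluster genes, at 745, 1138 and 499 CPM in controls and 1148, 685 and 1023 CPM with SS. Its log2 fold change was 0.26 ± 0.30 (SE), and 0.02 without control 3. H2afv, which encodes H2A.Z.2, was likewise lowest in control 3, with 44.2, 60.3 and 31.3 CPM in controls and 49.4, 37.4 and 53.5 CPM with SS. H2afz, which encodes H2A.Z.1, was at 183, 221 and 159 CPM in controls and 244, 195 and 241 CPM with SS, a log2 fold change of 0.27 ± 0.15 (SE, unadjusted p = 0.104 by edgeR), and 0.17 ± 0.15 without control 3.

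H1f0, the linker histone known to build up in cells that have stopped dividing, ran the other way. It was at 450, 560 and 703 CPM in controls and 440, 399 and 498 CPM with SS, so that control 3 was the highest of the 6. The groups overlapped by control 1. The log2 fold change was -0.36 ± 0.17 (SE), with the smallest unadjusted p of all histone genes, 0.0696, an adjusted p of 0.790 by edgeR and an exact permutation p of 0.2. Without control 3 the change was -0.18 ± 0.14.

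The pair of genes for H3.3 did not move alike. H3f3b was at 377, 445 and 490 CPM in controls and 387, 404 and 442 CPM with SS, with control 3 highest. H3f3a was at 482, 451 and 363 CPM in controls and 408, 397 and 447 CPM with SS, with control 3 lowest. Their log2 fold changes were -0.09 ± 0.12 and -0.05 ± 0.13 (SE). H2afj, an H2A gene whose mRNA is polyadenylated, ranged from 460 to 604 CPM with a log2 fold change of 0.10 ± 0.12 (SE). H2afy, which encodes macroH2A1, ranged from 121 to 153 CPM with a change of -0.06 ± 0.12. H2afy2, for macroH2A2, and H2afy3 ranged from 0.25 to 6.20 CPM and from 2.51 to 4.41 CPM, and H1fx ranged from 0.12 to 1.74 CPM. At these levels the errors were wide, with log2 fold changes of 0.24 ± 0.92, 0.36 ± 0.33 and -0.79 ± 0.78 (SE). The direction of H2afy2 was not stable, with -0.58 under the replicate block, -0.89 by limma-voom, -0.66 by quantile normalization with limma and -1.49 without SS 2.

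**Figure D5:**
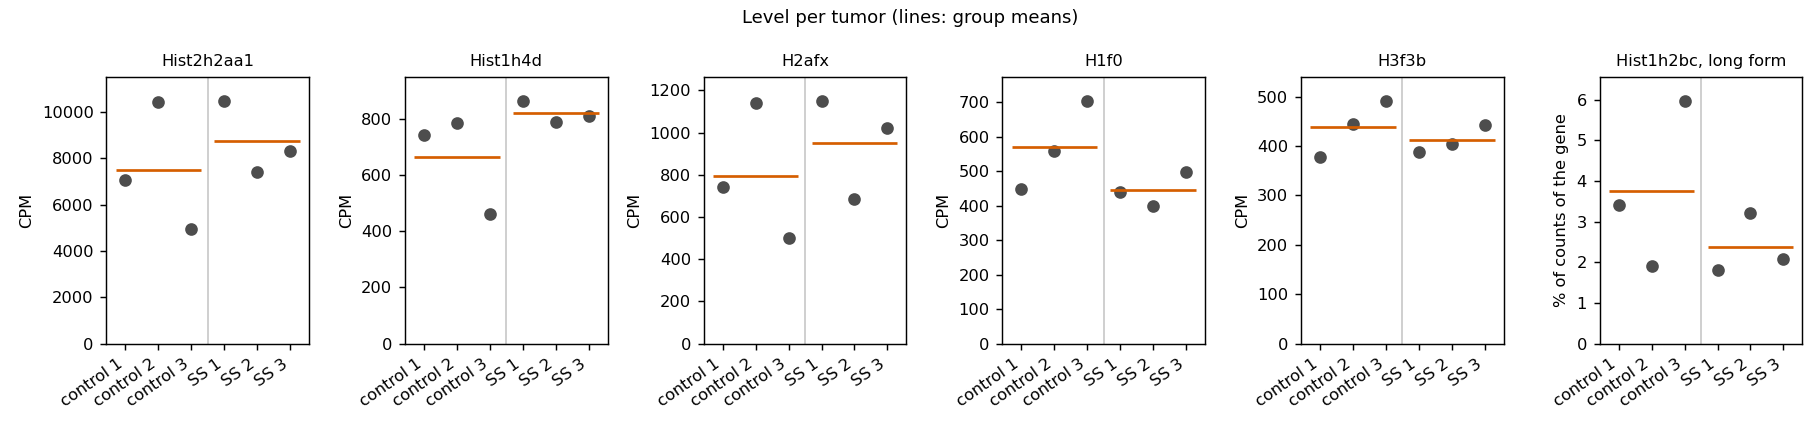
CPM in each tumor for 5 histone genes, and the share of Hist1h2bc counts given to its long transcript, with linear axes from 0. Points are tumors and orange lines are group means (n = 3). Hist2h2aa1, Hist1h4d and H2afx were lowest in control 3, and H1f0, H3f3b and the long form of Hist1h2bc were highest there.

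Genes of the cell cycle were read from lists in the same tumors. A list of S phase genes summed to 734, 870 and 639 CPM in controls and 859, 727 and 812 CPM with SS. A list of genes of mitosis summed to 499, 750 and 382 CPM in controls and 661, 485 and 593 CPM with SS. Both had the tumor order of the cluster genes apart from the first 2 places, with control 2 before SS 1. The ratio of cluster RNA to the S phase list was 67.5, 75.5 and 46.8 in controls and 78.8, 65.7 and 68.2 with SS, and its ratio of highest to lowest was 1.68, smaller than the 2.27 of the cluster sum. The ratio to the mitosis list varied less, at 99.3, 87.6 and 78.3 in controls and 102.5, 98.5 and 93.4 under SS, with 1.31 between highest and lowest. Most of the mitosis list was Top2a, the gene of a topoisomerase, which made up between 56.5% and 60.2% of it, and without that gene the highest ratio exceeded the lowest by 1.34. At an unadjusted p under 0.05 there were 0 of 30 S phase genes and 0 of 19 genes of mitosis tested. The replication clamp gene Pcna was at 2.71 to 4.86 CPM and the proliferation marker Mki67 at 2.92 to 6.89 CPM. Control 3 was the lowest tumor for 11 of the 30 S phase genes and 9 of the 19 of mitosis. The part of cell division in the histone levels was not tested.

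Genes that act on histone mRNA itself were read as a list of 18 genes for its transcription and processing. They summed to 758, 830 and 781 CPM in controls and 803, 723 and 790 CPM with SS, a sum to which abundant genes such as Sympk gave the most. Slbp, whose protein binds the stem-loop, was at 24.3, 31.6 and 26.5 CPM in controls and 33.7, 27.4 and 28.1 CPM with SS, a log2 fold change of 0.12 ± 0.16 (SE). Npat, whose protein activates the cluster promoters, was at 4.03, 3.98 and 4.84 CPM in controls and 2.98, 1.19 and 4.48 CPM with SS, a log2 fold change of -0.56 ± 0.47 (SE). Lsm11, a subunit of the U7 particle that cuts these mRNAs, was at 8.54, 6.00 and 4.92 CPM in controls and 3.34, 5.72 and 3.04 CPM with SS, a change of -0.69 ± 0.36 (SE, log2 scale, unadjusted p = 0.0947 by edgeR). None of the 3 was lowest in control 3. Of the 18, 1 was at an unadjusted p under 0.05, where 6.36% of all genes were. This was Srrt, a partner of the cap-binding complex, with a log2 fold change of 0.29 ± 0.12 (SE). Its adjusted p was 0.771 by edgeR.

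Of 27 genes for histone chaperones and remodellers tested, 4 were at an unadjusted p under 0.05, where 6.36% of all genes were, and none after adjustment by edgeR. The groups did not overlap in 8 of the 27, where they did not in 12.9% of all genes. The chaperone genes Set and Npm1 had log2 fold changes of -0.37 ± 0.09 and -0.31 ± 0.10 (SE). Atrx, which acts in H3.3 deposition, and Ino80, the ATPase of a remodeller, had changes of 0.23 ± 0.09 and 0.23 ± 0.10. These 4 are among the 8, and the summed list stood at 3201, 3485 and 3403 CPM in controls and 3434, 3173 and 3327 CPM with SS.

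Other RNAs without a poly(A) tail were read beside the cluster genes, since most mRNAs of the clusters, like these RNAs, carry no tail for the selection to bind. Of 25 on the list, 8 were in the table, and they summed to 277, 218 and 240 CPM in controls and 439, 356 and 433 CPM with SS. These groups did not overlap, and control 3 was not the lowest, unlike in the cluster genes. Rn45s, the precursor of ribosomal RNA, was at 127, 90.7 and 89.7 CPM in controls and 195, 242 and 187 CPM with SS, a log2 fold change of 1.02 ± 0.17 (SE) with an unadjusted p of 0.000384 and an adjusted p of 0.679 by edgeR. It was lowest in control 3, as most cluster genes were, with control 2 nearly level. It was highest in SS 2, where 15 of 65 cluster genes were above their own mean. The other RNAs of the list did not take that course. Rmrp, the RNA of a ribonuclease, was at 48.7, 38.4 and 44.4 CPM in controls and 96.8, 33.3 and 81.8 CPM under SS, lowest in SS 2 with groups that overlapped. Without Rn45s the list was 150, 128 and 150 CPM in controls and 244, 114 and 246 CPM under SS, and the groups overlapped. Of 3 nuclear long RNAs tested, Neat1 and Xist were at an unadjusted p under 0.05, where 6.36% of all genes were. Their changes were 0.65 ± 0.24 and 0.73 ± 0.18, with adjusted p-values of 0.771 and 0.760 by edgeR. The part of RNA selection in the histone levels was not tested.

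Markers of other cells in the tumors took several courses. The summed macrophage list was 853, 996 and 1070 CPM in controls and 1129, 890 and 1062 CPM with SS, with Cd14 the 1 gene of 12 at an unadjusted p under 0.05. The erythroid list was 5521, 2674 and 3007 CPM in controls and 1305, 2826 and 1906 CPM with SS, in groups that overlapped. Of its 6 tested genes with distinct counts, 4 (Hba-a1, Hba-a2, Hbb-bt and Alas2) were at an unadjusted p under 0.05 with lower levels in SS. Of all genes, 6.36% were at that p in either direction, and no erythroid gene was called after adjustment by edgeR. Hbb-b2 had the same counts as Hbb-bt and was not counted again. The adipocyte list was 389, 223 and 210 CPM in controls and 315, 331 and 234 CPM under SS treatment, lowest in control 3 as the cluster genes were. Most of it was Cebpa, and without that gene the list was 162, 28.5 and 25.3 CPM in controls against 81.2, 108 and 28.6 CPM, so that control 1, SS 1 and SS 2 stood above the rest. The endothelial list was also lowest in control 3, at 119, 98.0 and 72.5 CPM in controls and 98.6, 184 and 102 CPM under SS, and Vwf was its 1 gene at that p. The part of these cells in the histone levels was not tested. T cell genes summed to between 11.7 and 83.2 CPM and neutrophil genes to between 1.08 and 5.61 CPM, each highest in control 1. No B cell gene passed the filter, and their sum was 15.97, 1.28 and 0.164 CPM in controls and 0.145, 0 and 0 CPM under SS, which did not overlap and was mostly Pax5. Of the tumor markers, Krt18 was the 1 gene of 13 at that p. Control 3 alone was the lowest of the 6 for 5 of 9 adipocyte genes, 3 of 6 endothelial genes, 0 of 12 macrophage genes and 0 of 6 erythroid genes. Among the adipocyte genes it tied at 0 counts with SS 3 for Plin1, and with control 2 and SS 3 for Cidea.

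Several histone genes could not be told apart. Hist1h2bq and Hist1h2br had identical counts in every tumor, at 1529, 2122 and 888 CPM in controls and 2092, 1514 and 1647 CPM with SS. In all, 5 pairs of symbols overlapped on the same strand, these and Hist1h2ao with Hist1h2ap, Hist1h4m with Hist1h4n, Hist2h2aa1 with Hist2h2aa2, and Hist2h3c1 with Hist2h3c2. The table gave 9 genes at a pair of positions each. The copies of Hist2h2aa1, at chr3:96239779-96240334 on the minus strand and chr3:96245497-96246052 on the plus strand, each took between 48.8% and 51.2% of its counts. Hist2h2aa2, whose copies overlap both, had 350, 359 and 182 CPM in controls and 358, 247 and 324 CPM with SS. How reads were divided within such a pair is therefore uncertain, and levels of its members are best read as their sum. Of the histone transcripts, 12.6% had counts that were exactly whole in all tumors, with no tolerance, against 39.2% of all transcripts.

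Another 5 genes had more than 1 transcript accession, Hist1h2bc, Hist1h2be, H2afv, H2afy and H2afz. Hist1h2bc had a short form of 469 bases at chr13:23684199-23684667 and a long form that ran to chr13:23692480. The long form took 3.40%, 1.91% and 5.96% of the counts of the gene in controls and 1.81%, 3.22% and 2.09% with SS. In CPM it was at 55.1, 44.0 and 66.4 in controls and 43.5, 55.9 and 41.6 with SS, so the long form was highest in control 3, where the short form, at 1048 CPM, was lowest. For Hist1h2be the long form took at most 0.118% of the counts, again in control 3. H2afy had 4 transcripts, and the 1 with the highest mean took between 38.1% and 62.3% of its counts, in groups that overlapped.

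The 2 genes that did not pass the filter were Hist1h2aa and Hist1h2ba, a head-to-head pair known from testis. Hist1h2aa had 0 counts in the 3 control tumors and 0, 1 and 22 counts with SS, and a count of 0 allows up to 3 counts, or between 0.123 and 0.237 CPM in the 4 libraries at 0. Hist1h2ba ranged from 0.00 to 0.98 CPM. These limits cover counting error only.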

How the data were processed

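RNA of 6 C0321 tumors was sequenced with a stranded poly(A) protocol. The table that the authors deposited holds estimated counts of RefSeq transcripts, not normalized, after removal of entries of very low expression. The lowest sum of a transcript over the 6 tumors was 10 counts. The submitters' processing notes name CASAVA 1.8.1, Bowtie2 2.2.5, STAR 2.5.3a and mm10, with no role. For most histone transcripts the end position in the table was 1 base past that of RefSeq, and ends are printed less that base.

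Counts were summed by symbol (21 symbols held as dates were restored from accessions), rounded, and compared by edgeR 4.0.16 in R 4.3.3 (TMM, its filter on low counts, quasi-likelihood test, Benjamini-Hochberg over 10902 genes). The study's own route was quantile normalization and a t statistic, and the alternative run here, quantile normalization with limma 3.58.1, uses a moderated statistic and is close to it but not the same. Depth was 8468914 to 24441522 counts, and limits from counts of 0 cover counting error only. Symbols with identical counts were counted once in sums, medians and counts of genes tested, also within the lists. Counts of stem-loops, promoters and head-to-head pairs, and the rank per kilobase, took every symbol.

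Named are all tested replacement genes, the 8 most abundant cluster genes, the 5 with the largest and the 5 with the smallest fold change, symbols with identical counts, genes that failed the filter, Slbp, Npat, Mki67, Pcna, Rn45s, and list members at an unadjusted p under 0.05. The other H1 genes, Hist3h2bb-ps, Hist1h4d, Lsm11, Sympk, Rmrp, Top2a, genes with several transcripts, overlapping symbols and the marker levels were named after their values were seen. The histone genes and lists were chosen with earlier results of these data known.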

Additional observations from a re-analysis of the deposited data

How the results depend on the processing

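Direction and side of the threshold were recomputed with RLE and upper-quartile scaling, other filters on low counts, thinning to the smallest total, DESeq2, limma-voom, quantile normalization with limma, the replicate block, and each tumor left out, and, chosen after seeing the data, with overlapping symbols merged. No histone gene was called after adjustment in any of these. DESeq2 called 35 genes in all, none a histone gene, where edgeR called 0. The count of histone genes at an unadjusted p under 0.05 was 0 with all tumors by edgeR, 1 with no filter on low counts (Hist1h2aa), 1 with DESeq2 (H1f0), 1 with the replicate block (H1f0), and from 0 to 10 with a tumor left out, the 10 without control replicate 2. The number of cluster genes with a log2 fold change above 0 was 22 without control replicate 3, and from 22 to 65 over all tumors left out. The median log2 fold change of the cluster genes ran from -0.04 (without control replicate 3) to 0.52 (without control replicate 2) with a tumor left out, and from 0.22 to 0.32 under the other settings. That of the replacement genes ran from -0.04 (replicate block) to 0.14 (without control replicate 2). The log2 ratio of the summed cluster CPM ran from -0.02 to 0.52 with a tumor left out and was 0.24 without Hist2h2aa1. Deviations of same-numbered tumors correlated by 0.116, 0.021 and 0.077. Tumors of unlike number were not compared, so these values cannot show whether the numbers carry a pairing. With the replicate block the cluster median was 0.30.

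Some genes changed sign under some settings. H2afy2, at 0.24 by edgeR with all tumors and a standard error of 0.92, had -0.58 with the replicate block, -0.89 with limma-voom and -0.66 with quantile normalization. Hist1h2ag had 0.014, 0.047 and 0.04 under the same 3, Hist1h1e had -0.0018 with upper-quartile scaling, and Hist3h2ba had -0.0903 when thinned. With a tumor left out, log2 fold changes ran from -0.0004 to 0.17 for H2afj, -0.16 to 0.31 for H2afv, -0.14 to 0.023 for H2afy, -1.49 to 0.79 for H2afy2, -0.16 to 0.0355 for H3f3a, -0.19 to 0.0019 for H3f3b, -0.20 to 0.18 for Hist1h1e, -0.41 to 0.19 for Hist1h2ag, -0.0514 to 0.40 for Hist1h2bb, -0.0586 to 0.53 for Hist1h2bq and Hist1h2br, -0.0019 to 0.54 for Hist2h2aa1, -0.19 to 0.22 for Hist2h2aa2, -0.0851 to 0.61 for Hist2h3c2, -0.23 to 0.32 for Hist3h2a and -0.46 to 0.57 for Hist3h2ba.

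The cause of these changes was not tested, beyond the smaller number of tumors. With 3 tumors a group and a median standard error of 0.29, changes of the size seen in the cluster genes could not be told from no change.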
